A study of Mus musculus with 12 samples.

Results

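Liver RNA of 3 mice carrying a single intact copy of Sirt1 (Het) was compared with that of 3 wild-type mice (WT), all kept on low-fat food, out of 12 mice in the series. The 6 arrays were chosen by their titles, Het_LF_1 to 3 and WT_LF_1 to 3. The low-fat groups are male C57BL/6 mice labelled SIRT1+/- or SIRT1+/+, after 34 weeks on the low-fat diet, and the remaining 6 mice, also male C57BL/6 of both genotypes with 3 in each group, received high-fat food for the same time. The labels do not say how the Sirt1 allele was disrupted or which part of the gene it lacks, nor the age at the start of the diet or whether the animals were littermates. Each mouse gave 1 array, on which the brightness of a short DNA probe reports 1 transcript. A level below is the log2 signal of a probe minus the log2 75th percentile of the signals of its array, and a difference is the Het mean minus the WT mean of 3 mice each, with its standard error (SE).

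SIRT1 is a protein deacetylase that uses NAD, so that its activity follows the energy state of the cell. In the liver it acts on transcription factors and cofactors of glucose production, fatty acid oxidation, cholesterol and bile acid handling, and on NF-kB and p53, regulators of inflammation and of the response to DNA damage. A heterozygous animal tests what a lower dose of the gene does while the other copy still works.

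Sirt1 was lower in every Het array than in every WT array, at both of its probes. No gene, Sirt1 included, passed the test once all genes were considered. Among the genes of lowest p, Lix1 and Phlda3 had higher levels in all 3 Het mice, and differences close to 0 on the high-fat diet. Phlda3 is a p53 target, and no other of the 20 such targets measured had an unadjusted p under 0.05. Most immunoglobulin and lymphocyte genes had negative differences, with 1 of the 3 WT mice lying among the Het mice for the immunoglobulins. Genes of oxidative phosphorylation, cholesterol synthesis, fatty acid oxidation and the urea cycle had median differences close to 0.

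Of the spots on the 6 low-fat arrays, 58.0% to 71.6% lay well above background, and the faintest signal so flagged had a level between -6.46 and -5.06, so levels near -5 are at the limit of detection. That limit was -6.46, -5.90 and -5.06 in the WT mice and -5.15, -5.17 and -5.49 in the Het mice. A faint level could thus be flagged in WT 1 or WT 2 and not in a Het mouse. All 6 were scanned on 1 day on 2 slides, 4 arrays with both genotypes (the WT mice and Het 1) on the one and Het 2 and Het 3 on the other. Hepatocyte markers marked every array as liver: albumin (Alb) had levels of 8.54, 9.19 and 8.57 in the WT mice and 8.45, 8.33 and 8.87 in the Het mice. The first principal component of the low-fat arrays held 43.1% of the variance and set WT 2 (score 40.2) and Het 3 (31.0) against the other 4 arrays (-30.1 to -4.16), so the widest variation ran across genotype. Before scaling, WT 2 and Het 3 also had the lowest 75th percentile signals of the 6 (1186.2 and 1370.5, against 1821 to 2006.4). Whether the component follows the animals or the brightness of the arrays was not tested. Results are therefore given with and without WT 2 and Het 3 where they rest on them.

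Several of the genes that varied most between the low-fat arrays also set WT 2 and Het 3 apart. Cidea, a lipid droplet protein that enlarges droplets in fatty hepatocytes, had levels of 2.91, -2.96 and 2.48 in the WT mice and 4.59, 3.49 and -1.37 in the Het mice. Its relative Cidec stood at 1.54, -0.31 and 2.37 in WT and at 2.12, 2.52 and 0.08 in Het. In both genes WT 2 and Het 3 were the 2 lowest of the 6. Maf, a transcription factor, ran the opposite way, at 3.33, 5.11 and 2.22 in WT and 2.19, 2.93 and 4.64 in Het. Arid5b, a chromatin regulator, likewise was highest in WT 2 (5.45) and Het 3 (4.36). The genotype differences of these genes were smaller than their SE (Cidea 1.42 ± 1.62, Cidec 0.38 ± 0.74, Maf -0.30 ± 0.85, Arid5b -0.51 ± 0.88).

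**Figure D1:**
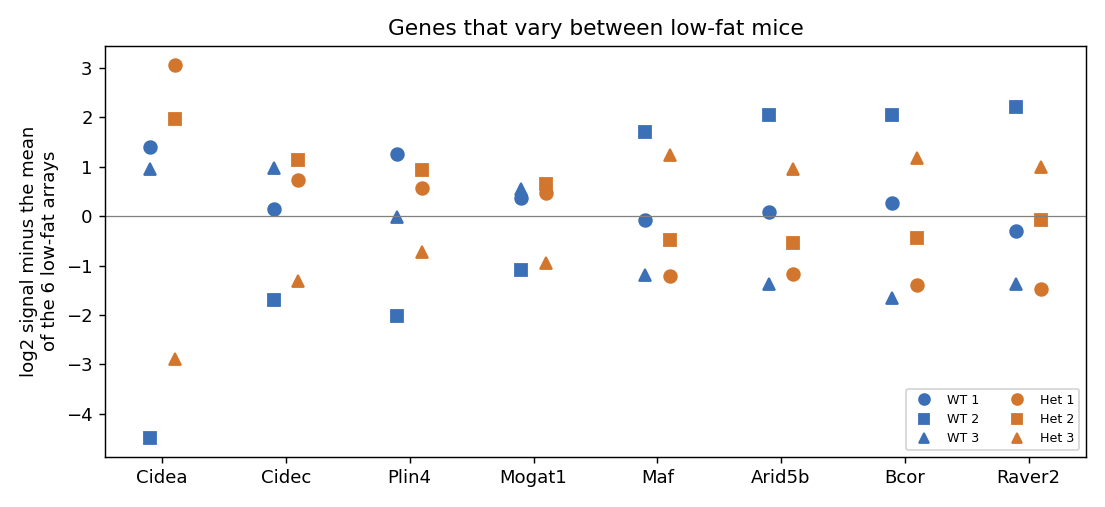
Levels of 8 genes in the 6 low-fat mice, each as log2 signal minus the mean of the 6 arrays; blue is WT, orange is Het, and circle, square and triangle are mice 1, 2 and 3. WT 2 and Het 3 lie together, low for Cidea and Cidec and high for Maf and Arid5b, whatever their genotype.

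Sirt1 itself was measured by 2 probes on chromosome 10 (mm7, the build of the array design), shown here by their opening 30 bases because they report the gene whose dose defines the groups. The brighter lies at chr10:62855795-62855854 and the dimmer at chr10:62838289-62838348.
brighter: actaatggctttcattcctgtgaaagtgat
dimmer: aaactagggatcaattttctcaactgcaga
At the brighter probe the WT mice had levels of 0.23, -0.05 and -0.09 and the Het mice -0.37, -0.62 and -0.23. The lowest WT mouse lay above the highest Het mouse. The difference was -0.43 ± 0.13 (SE), a signal 74.0% of WT (95% interval 60.4% to 90.7%). At the dimmer probe the WT levels were -0.69, -0.64 and -0.31 and the Het levels -1.13, -1.18 and -1.12. Here the 3 Het mice lay within a narrow band, wholly below the WT mice. The difference was -0.60 ± 0.13, or 66.2% of WT (54.1% to 80.8%). In an exact two-sided permutation test of the 6 arrays each probe gave p = 0.1, the smallest that the 20 arrangements of 3 against 3 allow. In limma's test across all genes both had an adjusted p of 0.9999.

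The same probes were lower in the high-fat Het mice, by -0.44 ± 0.13 and -0.69 ± 0.13 against the high-fat WT mice. The effect of genotype on the low-fat diet minus that on the high-fat diet was 0.01 ± 0.19 at the brighter and 0.09 ± 0.19 at the dimmer probe. Within the slide that holds both genotypes, where Het 1 stands alone against the WT mice, the low-fat differences were -0.40 and -0.58, the same as with slide as a fixed term. Without WT 2 and Het 3 they were -0.56 and -0.66. Of the other sirtuins, a family of NAD-dependent deacylases, Sirt2, Sirt3, Sirt4, Sirt5 and Sirt7 were measured, with differences from 0.07 to 0.11 and groups that overlapped. Since the labels do not name the disrupted part of the gene, the probes measure Sirt1 transcript and not the allele.

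**Figure D2:**
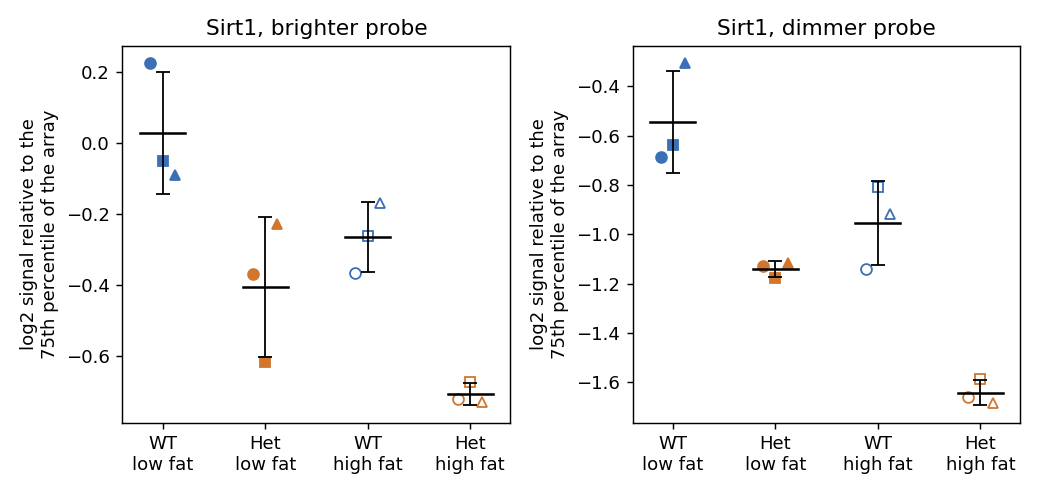
Levels of the 2 Sirt1 probes in all 12 mice; the axis is log2 signal relative to the 75th percentile of the array, filled symbols are low-fat and open symbols high-fat mice, circle, square and triangle are mice 1, 2 and 3, and the bars are mean ± SD of 3 mice. In each panel and on each diet the Het mice lie below the WT mice.

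Over 17043 genes and transcripts, limma's test with Benjamini-Hochberg adjustment called none between Het and WT on the low-fat diet at 0.05 (0% of those tested, lowest adjusted p 0.9999). At an unadjusted p under 0.05 there were 341, or 2% of all, 141 higher in Het (0.827%) and 200 lower (1.17%). Where no gene differs, a share of about 0.05 would fall under this threshold, so the 2% is no excess. The Het mice lay wholly above the WT mice for 333 genes (1.95%) and wholly below for 409 (2.4%). The median difference over all genes was -0.003 and the median SE 0.19. For 14876 genes (87.3%) the 95% interval of the difference lay inside a 2-fold change in either direction, while 36 genes had a measured difference of 2-fold or more upward and 82 downward. Every gene value below comes from this comparison and none passed the adjusted threshold. The series' design text calls the 3 samples of a group biological replicates.

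Among the 10 genes of lowest p with a higher level in Het, the lowest p was that of Lix1, named for its expression in the limb, with levels of -3.95, -3.65 and -3.95 in WT and -2.96, -3.04 and -3.08 in Het. Its difference was 0.82 ± 0.17, against -0.02 ± 0.17 on the high-fat diet. Phlda3, a p53 target that restrains AKT signalling, had levels of 0.24, 0.00 and 0.38 in WT and 1.10, 1.04 and 0.91 in Het. Its difference was 0.81 ± 0.18, against -0.03 ± 0.18 on the high-fat diet. The low-fat groups were well apart for both genes. Of the 20 p53 target genes measured, only Phlda3 had an unadjusted p under 0.05, beside 0.827% of all genes that were higher. Gadd45a differed by 0.60 ± 0.28, and the list had a median of 0.09.

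Myl7, which encodes a regulatory myosin light chain of the atrium (chr11:5848640-5848699), had levels of -3.03, -2.91 and -2.08 in WT and -0.99, -1.53 and -1.76 in Het, a difference of 1.24 ± 0.28. On the high-fat diet the order turned, with -1.41, -1.70 and -0.97 in WT and -2.49, -2.15 and -2.41 in Het. Aebp1, a gene for a secreted carboxypeptidase-like protein of fibroblasts, had levels of -5.39, -5.33 and -5.32 in WT and -4.02, -4.21 and -4.86 in Het. Its difference was 0.99 ± 0.26, and it was well above background in 2 of 3 WT mice.

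Tnxb, a tenascin of the extracellular matrix, differed by 0.90 ± 0.21 at its brightest probe, with levels of -1.88, -1.41 and -1.52 in WT and -0.52, -0.55 and -1.04 in Het. A second Tnxb probe, near the limit of detection, differed by 0.44 with overlapping groups. Gpc3, a heparan sulfate proteoglycan of the cell surface known from fetal liver, had levels of -4.03, -3.47 and -3.18 in WT and -2.30, -2.74 and -2.83 in Het, a difference of 0.94 ± 0.25. Like Myl7 it pointed the opposite way on the high-fat diet (-0.88 ± 0.25). Prph, an intermediate filament of neurons, differed by 1.17 ± 0.24 and was well above background in 2 of the 3 WT mice. LOC436227, a predicted locus, differed by 0.74 ± 0.20 and NAP100574-001, an unannotated probe, by 1.64 ± 0.36. The latter was well above background in 1 of 3 WT mice.

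**Figure D3:**
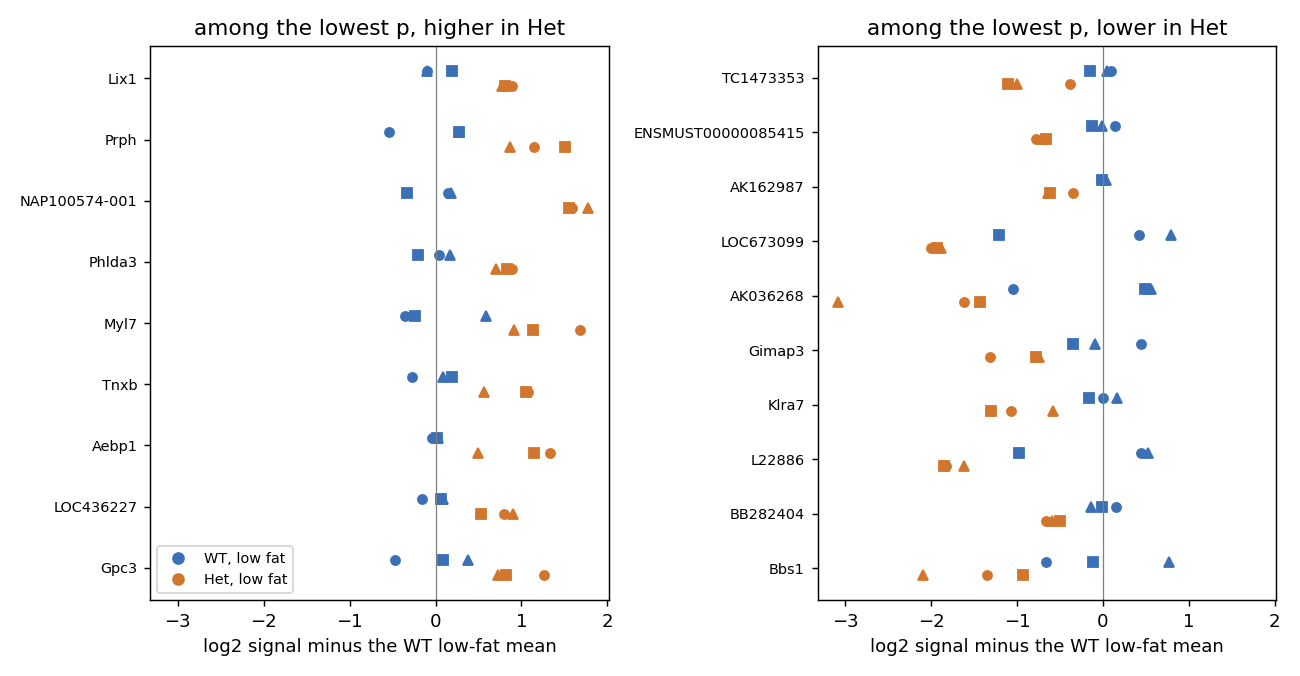
Genes among the 10 of lowest p in each direction, none of which passed the adjusted threshold, in the 6 low-fat mice; the axis is log2 signal minus the WT low-fat mean, blue is WT, orange is Het, and circle, square and triangle are mice 1, 2 and 3. In every gene shown the groups do not overlap, and for the immunoglobulin probes LOC673099 and L22886 WT 2 lies apart from WT 1 and WT 3.

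The 10 genes of lowest p with a lower level in Het ran from -0.53 (AK162987) to -2.04 (AK036268), and over both directions 11 of the 20 genes were well above background on all 6 arrays. AK036268 and TC1473353, both without a named gene, and Bbs1, a gene of the complex that carries cargo to the cilium, were not well above background in any Het mouse. AK036268 and Bbs1 were kept for the fit only because every low-fat WT array showed them well above background. For both, the contrast in detection was thus set by the filter and tests nothing, as does the bound below for AK036268. The high-fat levels of AK036268, in WT and Het alike, ran from -7.92 to -6.62, below the faintest flagged signal of each array. AK036268 was at least 1.47-fold and TC1473353 at least 1.42-fold lower in Het, taking the Het mice at no less than the detection limit of each array, and for Bbs1 no such bound could be given. The measured means were -4.71 against -6.75 for AK036268, -4.77 against -5.60 for TC1473353 and -5.37 against -6.82 for Bbs1, WT first. ENSMUST00000085415 (-0.71 ± 0.15) and BB282404 (-0.58 ± 0.15) were also faint and carry no gene name here.

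Probes holding a run of alternating bases are shown for NAP100574-001 and AK036268, since such simple sequence can occur in many transcripts. The capitals mark the run within 30 bases of the probe, at chr16:17364943-17365030 and chr10:4520389-4520448.
NAP100574-001: cactgtcttacCACACACAggaagggcggg
AK036268: tagtgtttctTGTGTGTGTttttaaagagt
Of 130 genes measured by a probe with such a run of 8 or more bases, 2 were higher and 1 lower at an unadjusted p under 0.05, beside 0.827% and 1.17% of all genes, and their median difference was 0.05.

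Genes of lymphocytes made up 4 of the 10 with a lower level in Het. The B cell makes immunoglobulins by joining variable segments of heavy and light chain genes, and the plasma cell into which it matures secretes them in bulk, so these transcripts report such cells in a tissue whose hepatocytes make none. In bulk tissue, fewer cells of a type and less RNA per cell cannot be told apart. The 60 immunoglobulin transcripts on the array, the joining chain Jchain among them, were collected by their descriptions after the values had been seen. Probes for variable regions resemble one another, and the longest run of bases that a probe shares with another of the 60 ran from 8 to 33 of its 60 bases (median 17.0), with 25 probes sharing 20 or more. The 4 of lowest p are printed with that shared run in capitals, to show which part of each could bind a related transcript.
LOC673099: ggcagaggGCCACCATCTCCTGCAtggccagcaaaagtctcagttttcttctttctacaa
L22886: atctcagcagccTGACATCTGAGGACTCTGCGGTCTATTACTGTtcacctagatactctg
AF218659: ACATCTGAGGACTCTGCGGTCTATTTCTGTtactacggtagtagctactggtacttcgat
AF210281: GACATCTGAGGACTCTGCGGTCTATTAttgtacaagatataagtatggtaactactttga
LOC673099 is a kappa light chain variable segment (chr6:70571620-70571679, mm7) and the others are heavy chain variable regions, of which AF218659 lies at chr12:112715073-112715132. The heavy chain probes share most of 1 stretch with each other, so their values are not independent measurements.

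LOC673099 had levels of -1.87, -3.51 and -1.51 in WT and -4.30, -4.23 and -4.18 in Het, a difference of -1.94 ± 0.45. L22886 had levels of -0.71, -2.14 and -0.64 in WT and -2.99, -3.01 and -2.77 in Het, a difference of -1.76 ± 0.43. AF210281 differed by -2.06 ± 0.57 and AF218659 by -1.33 ± 0.36. In all 4 the Het mice lay together below the WT mice, and WT 2 was the WT mouse nearest to them.

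Of the 60 transcripts, 56 (93.3%) had a negative difference, 25 of them at an unadjusted p under 0.05 (beside 1.17% of all genes) and 0 at an adjusted p under 0.05. In 17 of them the Het mice lay wholly below the WT mice, against 2.4% of all genes. The median difference was -1.08, beside -0.003 over all genes. The mean level of the 60 was -2.15, -3.86 and -2.17 in WT and -3.97, -3.76 and -3.88 in Het. WT 2 thus lay among the Het mice, WT 1 and WT 3 stood alone, and WT 2 was below both in 51 of the 60. Without WT 2 the median difference was -1.65, without WT 1 -0.83, without WT 3 -0.77 and without both WT 2 and Het 3 -1.57. Within the slide of both genotypes it was -1.30. In the high-fat mice the median difference was -0.63, and the WT mean levels were -3.50, -2.57 and -3.48 against -3.94, -3.37 and -4.07 in Het.

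Markers of B and plasma cells, a list that shares 2 members with the 60, were compared next. Jchain, the protein that joins secreted IgA and IgM, had levels of 1.14, -1.57 and 0.57 in WT and -1.90, -1.75 and -1.33 in Het, a difference of -1.71 ± 0.63. A second Jchain probe differed by -1.66. Mzb1, a chaperone of immunoglobulin assembly, had levels of -0.95, -3.61 and -1.63 in WT and -3.69, -3.33 and -3.56 in Het, a difference of -1.47 ± 0.53. Pou2af1, a transcriptional coactivator of B cells, differed by -1.10 ± 0.47. In Jchain, Mzb1 and Pou2af1 alike WT 2 fell among the Het mice and the groups overlapped. Of the 9 measured members of this list 3 had an unadjusted p under 0.05, all lower in Het (beside 1.17% of all genes), 8 differences were negative (beside 50.9%) and the median was -0.68. Of the 9, Jchain and Ighm were also counted among the 60 immunoglobulin transcripts. Without them 6 of 7 differences were negative with a median of -0.68, and the other 58 transcripts had a median of -1.08. The mean level of the list was -0.11, -1.66 and -0.98 in WT and -1.87, -1.48 and -1.73 in Het. Without WT 1, the highest of the 6, the median was -0.18, and without WT 2 it was -1.03.

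Most T and NK cell genes also had negative differences. Cd2, an adhesion receptor of T and NK cells, had levels of -3.62, -4.18 and -4.57 in WT and -5.12, -4.84 and -4.60 in Het (-0.73 ± 0.26). Lck, the kinase of the T cell receptor, had levels of -1.95, -2.38 and -2.83 in WT and -3.66, -2.95 and -2.61 in Het (-0.69 ± 0.28). Nkg7, a protein of cytotoxic granules, stood at -1.41, -1.86 and -1.83 in WT and -2.70, -1.97 and -2.12 in Het (-0.56 ± 0.25). Cd2 and Nkg7 separated the groups narrowly and Lck did not. With Ptprcap (-0.34 ± 0.15), which is shared by T and B cells, these were the 4 of 16 measured genes with an unadjusted p under 0.05, beside 1.17% of all genes that were lower, and 13 of 16 differences were negative, beside 50.9% of all genes. The median was -0.43. Het 1 had the lowest mean level of this list, -3.64 against -3.09 and -3.21 in the other Het mice and -2.66, -3.06 and -3.15 in WT. Within the slide of both genotypes, where Het 1 is the only Het mouse, the median was -0.93, and without Het 1 it was -0.30. On the high-fat diet the median difference of this list was 0.23.

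Klra7, a receptor of NK cells, and Gimap3, a GTPase of lymphocytes, were among the 10 lowest p. Klra7 had levels of -4.15, -4.31 and -3.99 in WT and -5.22, -5.45 and -4.72 in Het (-0.98 ± 0.24), and Gimap3 -4.00, -4.78 and -4.53 against -5.75, -5.22 and -5.19 (-0.95 ± 0.23). Both were well above background in all WT mice and in 1 Het mouse. A second Gimap3 probe differed by -0.40 with overlapping groups. Of the 6 Gimap genes measured 5 had negative differences (median -0.24), and all 5 Klra genes did (median -0.23), beside 50.9% of all genes. These counts include Gimap3 and Klra7, and no other member had an unadjusted p under 0.05 or separate groups. Ciita, the activator of the MHC class II genes, differed by -0.71 ± 0.31. All 19 measured genes of antigen presentation had negative differences, beside 50.9% of all genes, with a median of -0.12. Their mean levels overlapped, at 3.15, 2.99 and 2.53 in WT and 2.53, 2.80 and 2.92 in Het, with WT 3 below Het 2 and Het 3. On the high-fat diet their median difference was 0.14. Of the 19, 1 had an unadjusted p under 0.05, beside 1.17% of all genes that were lower. The hepatocyte markers beside them, with 14 of 15 listed genes measured, had mean levels of 6.93, 7.34 and 7.03 in WT and 6.98, 6.88 and 7.24 in Het and a median difference of -0.10. All 14 had a 95% interval inside a 2-fold change.

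**Figure D4:**
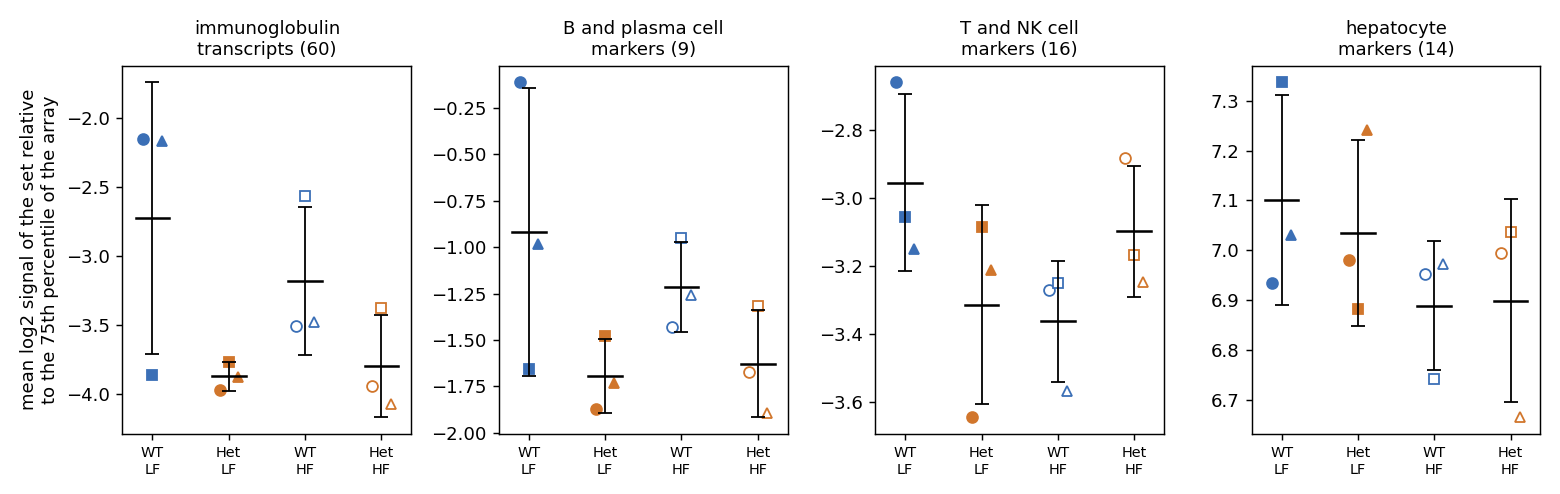
Mean levels of 4 gene sets in all 12 mice, as log2 signal relative to the 75th percentile of the array; filled symbols are low-fat (LF) and open symbols high-fat (HF) mice, circle, square and triangle are mice 1, 2 and 3, and the bars are mean ± SD of 3 mice. On the low-fat diet WT 2 lies with the Het mice for immunoglobulin transcripts (-3.86) and for B and plasma cell markers (-1.66), and hepatocyte markers overlap between groups.

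Other cell type lists had small or uneven differences. For macrophages and Kupffer cells 16 of 21 differences were negative and 5 positive, with a median of -0.06. The 3 genes of lowest p were among the 5: Mmp12 (1.19 ± 0.48), a metalloprotease, Gpnmb (1.12 ± 0.60), a membrane glycoprotein, and Trem2 (0.65 ± 0.41), a lipid-sensing receptor. Gpnmb differed by 0.52 without Het 1 and by 1.77 without Het 3. Mmp12 had levels of -5.05, -6.38 and -6.20 in WT and -4.50, -4.29 and -5.28 in Het, with 1 WT mouse well above background, and the groups overlapped. Neutrophil markers had a median of 0.41 over 11 genes, none at an unadjusted p under 0.05. This rested on Het 2, whose mean level was -3.27 against -4.62 to -4.11 in the other 5 mice, and without it the median was 0.05. Among stellate cell genes Rgs5, a marker of pericytes, was lower in all Het mice (0.23, 0.21 and 0.71 against 0.97, 1.11 and 0.74), with a difference of -0.56 ± 0.23, while the list as a whole had a median of 0.15.

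Of 47 lists of pathway and cell type genes, 42 had a median difference smaller than 0.2 in size, 2 were at or above 0.2 (neutrophils and immediate early genes) and 3 at or below -0.2 (both lymphoid lists and female-biased liver genes, at -0.20). Over the 799 genes in them, 10 were higher (1.25%) and 12 lower (1.5%) at an unadjusted p under 0.05, near the 0.827% and 1.17% of all genes. The 95% interval lay inside a 2-fold change for 29 of 29 genes of oxidative phosphorylation (median -0.01), 25 of 25 of cholesterol synthesis and uptake (0.01), 26 of 28 of fatty acid oxidation (-0.004), 23 of 24 of the urea cycle and amino acids (-0.08) and 28 of 28 of complement and coagulation (0.01). The 24 partners and substrates of SIRT1 had a median of 0.02, with Ppargc1a, the coactivator of gluconeogenesis and mitochondrial genes, at -0.05 ± 0.21. The 22 genes of NAD synthesis and use had a median of 0.03, with Nampt, which makes the NAD precursor, at 0.14 ± 0.18.

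Within glucose and lipid metabolism a few genes had separate groups at small differences. Abcg5 and Abcg8, the pair that exports sterols into bile, differed by 0.37 ± 0.21 and 0.28 ± 0.21. Abcg5 had levels of 5.23, 5.0 and 5.10 in WT and 5.47, 5.52 and 5.47 in Het. Plin3, a lipid droplet coat protein, had levels of 4.53, 4.08 and 4.29 in WT and 4.58, 4.81 and 4.53 in Het, a difference of 0.34 ± 0.14. Plin3 was thus barely apart between groups. Cyp7a1, the rate-limiting enzyme of bile acid synthesis, had levels of 2.81, 0.86 and 1.99 in WT and 0.94, 0.08 and 1.67 in Het. Its groups overlapped and its difference was -0.99 ± 0.50 (95% interval -2.09 to 0.10). A second Cyp7a1 probe differed by -0.72. Without WT 2 and Het 3 the difference at the brighter probe was -1.89, and without WT 1 it was -0.53. G6pc, which releases glucose, differed by -0.34 ± 0.35, Srebf1, the regulator of fat synthesis, by 0.25 ± 0.27, and Fasn, the fatty acid synthase, by -0.16 ± 0.30.

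Acute phase and stress genes tended to positive values without passing, and other lists did so as well. Fibrosis genes had 19 of 22 positive differences (median 0.17) and circadian clock genes 17 of 20 (median 0.18). In both lists the mean levels overlapped between groups. Those of fibrosis were 0.29, 0.16 and 0.36 in WT and 0.68, 0.71 and 0.13 in Het, with Het 3 the lowest. Those of the clock were 0.55, 0.02 and 0.27 in WT and 0.38, 0.40 and 0.63 in Het. Saa1, a serum amyloid, had levels of 4.98, 4.13 and 4.43 in WT and 5.38, 5.49 and 4.99 in Het (0.77 ± 0.35), and its neighbour Saa2 differed by 0.80 ± 0.35. The 2 genes are near-identical copies, so their probes may share transcripts. Of the 30 acute phase genes 20 had positive and 10 negative differences, with a median of 0.11. The largest decrease was that of Hamp, which encodes hepcidin, at -0.64 with overlapping groups. Only Saa2 had an unadjusted p under 0.05, beside 0.827% of all genes that were higher. Within the slide of both genotypes the median of the list was -0.01. Socs3, an inhibitor of cytokine signalling, differed by 0.63 ± 0.24 and Cish, a target of growth hormone signalling, by 0.59 ± 0.24. Cish stood at 2.13, 2.29 and 2.42 in WT and at 2.33, 3.0 and 3.30 in Het, so that Het 1 lay among the WT mice, and within its slide the difference was 0.05. That of Socs3 was 0.28 there. Myc, the growth regulator, had levels of -0.64, -2.13 and -1.25 in WT and -0.31, -0.49 and -0.62 in Het, a difference of 0.87 ± 0.38 that its other 2 probes gave as 0.83 and 0.93. Chac1, an enzyme of the unfolded protein response, differed by 0.66 ± 0.27 and Relb, an NF-kB subunit, by 0.47 ± 0.20. The lists of NF-kB targets (median 0.17), of ER stress (0.15) and of immediate early genes (0.22) held 19 of 24, 20 of 24 and 17 of 20 positive differences, beside 49.1% of all genes. Single mice stood apart in their mean levels. For NF-kB targets Het 2 (-0.08) lay above the other 5, with Het 1 at -0.49, Het 3 at -0.61 and WT at -0.53, -0.69 and -0.51. For ER stress Het 2 (3.37) was likewise the highest, while Het 1 (3.04) and Het 3 (2.95) lay below WT 3 (3.14). For immediate early genes Het 3 (-0.55) was the lowest of the 6, and without Het 1 the median was 0.10. The lists of NF-kB targets, ER stress and immediate early genes each had 1 member at an unadjusted p under 0.05, higher in Het (beside 0.827% of all genes).

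Among sex-biased liver genes Moxd1, a male-biased monooxygenase-like gene, had the widest spread, at -1.38, -0.39 and -3.14 in WT and -3.09, -5.70 and -2.23 in Het, a difference of -2.04 ± 0.81 with overlapping groups. It was -1.03 without Het 2, -1.42 without WT 2 and -2.79 without WT 3. The 19 male-biased genes had a median of -0.15 and the 19 female-biased genes -0.20. Bub1b, a kinase of the mitotic checkpoint, differed by -0.44 ± 0.17 with separate groups. Negative differences were found for 23 of 25 cell cycle genes (median -0.07), beside 50.9% of all genes. The mean levels of that list overlapped, at -1.28, -1.86 and -1.35 in WT and -1.48, -1.52 and -1.79 in Het, with WT 2 the lowest. On the high-fat diet its median difference was 0.30. The clock genes Usp2 and Ciart varied more between mice than between genotypes: Ciart stood at 0.92, -2.36 and -1.32 in WT and at -0.82, -0.90 and 0.72 in Het.

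**Figure D5:**
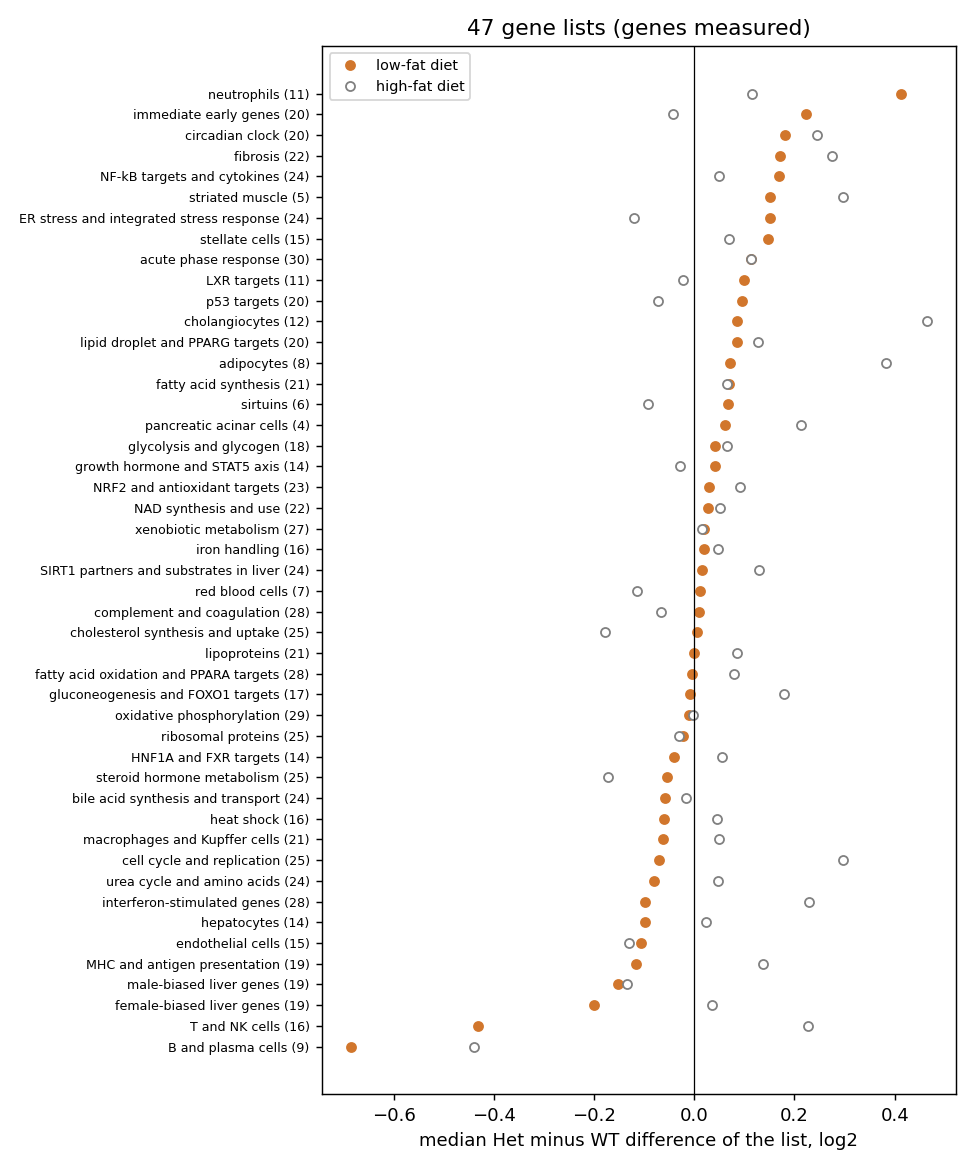
Median Het minus WT difference (log2) of 47 gene lists, with the number of measured genes in brackets; filled points are the low-fat mice and open points the high-fat mice. On the low-fat diet the B and plasma cell list (-0.68) and the T and NK cell list (-0.43) lie farthest below 0 and the neutrophil list (0.41) farthest above.

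The same genotype comparison in the high-fat mice, which are other animals, also called 0 genes (0%) in limma's test, with 1475 (8.65%) at an unadjusted p under 0.05. High-fat WT 1 and WT 2 were alone on 1 slide, and WT 3 shared another with all the high-fat Het mice. Genotype and slide thus run partly together there. The high-fat arrays were scanned on a different day from the low-fat arrays, so diet and scan day cannot be told apart. The difference between the effects on the 2 diets called 0 genes (0%, lowest adjusted p 0.94), with 828 (4.86%) at an unadjusted p under 0.05. Of the 341 genes with a low-fat unadjusted p under 0.05, 158 (46.3%) had the same sign on the high-fat diet, beside 50.5% of all genes. In both diets 28 had an unadjusted p under 0.05 with the same sign and 39 with opposite signs. Among the same-sign genes whose low-fat groups did not overlap were Sirt1, Ptprcap, DXBay18 (1.05 ± 0.29 and 1.05 ± 0.29) and Trim67 (-0.59 ± 0.17 and -0.49 ± 0.17), a ubiquitin ligase. DXBay18 was well above background in 2 of 3 WT mice and Trim67 in 1 of 3 Het mice. Among the opposite-sign genes were Myl7, Gpc3, Nkg7 and Bub1b, and Heyl, a Notch target, at 0.46 ± 0.13 on the low-fat and -0.48 ± 0.13 on the high-fat diet. The low-fat levels of Heyl were -1.70, -1.72 and -1.75 in WT and -1.24, -1.50 and -1.06 in Het. Since no gene passed in the test of the difference, none of these can be said to respond differently on the 2 diets.

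The neighbours of Sirt1 on chromosome 10 were also compared. Of 77 genes within 5 Mb of the brighter Sirt1 probe, 1 had an unadjusted p under 0.05, a share near the 2% of all genes. It was Chst3, a sulfotransferase, at -0.66 ± 0.22, and 0 of the 77 had such a p on both diets. Their median difference was -0.05.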

How the data were processed

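Per the labels, Cy3-labelled liver RNA was hybridised to 1-colour arrays. The authors' deposited tables hold spot intensity values, background-subtracted and detrended within the array, per the file headers. The submitters' processing notes name Agilent Feature Extraction 9.5. The deposited flags (other values) mark spots well above background, saturated or outlying. The deposited series table held the same intensity values on a linear, uncentred scale, its medians running from 78.3 to 163.4.

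Here log2 intensity was scaled to the 75th percentile of the non-control spots of each array. Outlier spots (1344) were dropped and saturated spots kept. Of 41174 probes, 25297 were kept, those that every array of any 1 of the 4 groups showed well above background. The probe of highest mean signal stood for a gene, 17043 in all, 14213 with a current symbol. Probes were named by accession (22951), current symbol (6659), older symbol (3109) or the array design (8455). A model of 4 group means over all 12 arrays used limma (version 3.58.1, under R 4.3.3), with two-sided tests and Benjamini-Hochberg adjustment at 0.05. The fit was tested on simulated data.

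Members and lists were chosen with earlier results of these data known. Named genes are the Sirt1 probes, the 10 of lowest p in each direction and up to 3 of lowest p in each list; others, whose alternatives were added then, were named after their values were seen, not every gene of the rule is printed, and 1 item of the rule is not reported here. Replicate numbers are shared between groups, and the main fit did not treat them as pairs. Alternatives covered scaling, background, filters, probe choice, slide, replicate block and leaving out arrays.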

Additional observations from a re-analysis of the deposited data

How the results depend on the processing

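The 75 genes of the naming rule and its additions, among them those of lowest p, kept the sign of their difference. They also stayed short of the adjusted threshold. This held in 1249 values from changed settings and 900 values with 1 array left out. The 900 include the high-fat arrays, whose removal cannot change a low-fat difference, only its SE and p. In the 20 genes named for lowest p the groups did not overlap, so leaving out 1 low-fat array could not turn the sign either. For these values the kept sign was fixed beforehand and tests nothing. Of 22 other genes printed with a difference, Clca4b passed the adjusted threshold. The sign turned in 14 of 373 values from changed settings and in 16 of 264 with 1 array left out, which also include the high-fat arrays. Clca4b stood at 2.32, Fasn at 0.28, G6pc at 0.17, Ppargc1a at 0.33 and Sirt3 at -0.0051, both with slide as a fixed block and within the slide of both genotypes. Ppargc1a was 0.0888 as the mean of its probes, and without WT 2 and Het 3 it was 0.0047, Fasn 0.22 and Nampt -0.0753. With 1 array left out Cidea ran from -0.46 to 3.23, Cidec from -0.38 to 1.12, Maf from -0.99 to 0.48, Arid5b from -1.32 to 0.39, Nampt from -0.0641 to 0.29 and Fasn from -0.38 to 0.21. Likewise Ppargc1a ran from -0.25 to 0.13, Sirt2 from -0.0244 to 0.23, Sirt3 from -0.0179 to 0.20, Sirt4 from -0.0650 to 0.14, Sirt5 from -0.13 to 0.27 and Clca4b from -2.65 to -0.09. The number of genes called for genotype on the low-fat diet was 1 with slide as a fixed block and 1 within the slide that holds both genotypes, and ran from 0 to 1 with 1 array left out (1 without Het 1). That gene was Clca4b each time. For the difference between diets the number ran from 0 to 3, with 3 called without high-fat WT 3 and 1 without Het 1. The brighter Sirt1 probe ran from -0.52 to -0.33 and the dimmer from -0.67 to -0.48 with 1 array left out. At an unadjusted p under 0.05 there were 341 genes, against 629 without Het 3, 548 without WT 3, 579 with slide as a random block, 758 of 27668 without a filter on dim probes and 582 of 25297 probes tested singly. For the difference between diets the 828 became 1414 with slide as a random block and 1343 over single probes. With the replicate block 0 genes were called, 306 had an unadjusted p under 0.05 and the Sirt1 differences were -0.43 ± 0.16 and -0.60 ± 0.15. Deviations from the group mean correlated at 0.01, -0.28 and -0.47 between mice with the same number, and at 0.54 between WT 2 and Het 3. With 3 mice a group these values cannot show whether the mice were paired. The medians of gene sets were recomputed after the data were seen. With normexp background correction the immunoglobulin median was -0.69 and the neutrophil median 0.15, and without Het 3 the neutrophil median was 0.71. The immediate early genes had a median of 0.50 with slide as a fixed block and from 0.10 to 0.34 with 1 array left out. With 3 mice a group and many faint probes, signal over background limits what could be detected among genes near a level of -5.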

Other observations

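Clca4b, a gene of the calcium-activated chloride channel regulator family, was looked at because it was the gene called when slide or Het 1 was treated differently. Its levels were -4.93, -4.99 and -4.92 in WT and -2.63, -7.45 and -7.75 in Het, with 1 of 3 Het mice well above background. Het 1 thus lay above the WT mice and the other Het mice below them. With all arrays its difference was -0.996 ± 1.02. With slide as a fixed block it was 2.32 ± 0.21 (limma, adjusted p = 0.026), so Het 1 alone gave that call. Without Het 1 limma called the gene in the opposite direction (adjusted p = 0.00019), with Het 2 and Het 3 below the detection limits of their arrays (-5.17 and -5.49). Taken at those limits, the signal was at least 1.30-fold lower in these 2 mice than in WT, where the measured means were -7.60 and -4.95. Het 2 and Het 3 were also the arrays of the other slide, so genotype and slide cannot be told apart for this bound. In the high-fat mice of both genotypes the levels ran from -8.12 to -6.89. The gene was kept for the fit only because every low-fat WT array showed it well above background.

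Erdr1, an abundant transcript first described as an erythroid differentiation regulator, gave different answers at its 2 probes. The brighter had levels of 4.08, 4.88 and 3.92 in WT and 2.55, 3.43 and 3.33 in Het, a difference of -1.19 ± 0.34, and the other differed by -0.01. On the high-fat diet the brighter probe differed by 0.76 ± 0.34. The array design places both on unassembled sequence of mm7.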
